A study of Mus musculus with 15 samples.

Results

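The nuclear genes for the subunits of the mitochondrial respiratory chain and of ATP synthase were followed in mouse kidney RNA. They were taken by name from the deposited table: every gene whose symbol begins with Ndufa, Ndufb, Ndufc, Ndufs, Ndufv, Uqcr, Cox4 to Cox8 or Atp5, together with Sdha, Sdhb, Sdhc, Sdhd and Cyc1. Assembly factors with names that begin with Ndufaf and pseudogenes marked -ps, 9 names in all, were left out. This gave 89 genes of the 17832 in the table: 40 of complex I, 4 of complex II, 9 of complex III, 19 of complex IV and 17 of ATP synthase. Of these, 87 had a mean of at least 0.5 FPKM (fragments per kilobase of transcript, adjusted for how many reads each library had) and were tested. The other 2, both of complex IV, are given by name below.

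The samples were kidneys of male C57BLKS/J mice aged 22 weeks, in 3 groups of 5 libraries. The first group was db/db mice given 1 mg/kg dapagliflozin, an inhibitor of the SGLT2 glucose transporter of the proximal tubule, in 0.5% methylcellulose. The second was db/db mice given 0.5% methylcellulose alone, the vehicle. The third was m/m mice of the same strain given that vehicle, a group titled WT by the submitters. The db/db genotype disrupts the leptin receptor and makes mice obese and diabetic, and dapagliflozin was given to db/db mice only. Nothing in the labels ties a library to its own animal, and the p-values below therefore speak only of how far these libraries spread, a spread that may be technical.

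Complexes I and II take electrons from NADH and succinate and pass them through ubiquinone to complex III, then through cytochrome c to complex IV, which reduces oxygen. Complexes I, III and IV pump protons as they do so, and ATP synthase uses the gradient to make ATP. The proximal tubule, which reabsorbs most filtered glucose and sodium, relies on this pathway for its energy, and its cells are dense with mitochondria. Each complex except complex II also needs subunits encoded by mitochondrial DNA. Of 13 such genes looked for by name, 0 were in the deposited table, so the values below do not include them.

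The libraries form 2 sets by depth, and the db/db vehicle group is split between them. Reads in genes numbered 14.8 to 16.4 M in the 8 libraries of the high-read set (db/db vehicle 1 to 3 and all m/m) and 1.60 to 2.29 M in the 7 of the low-read set (all dapagliflozin, with db/db vehicle 4 and 5). Each comparison was therefore made within a set: db/db vehicle 1 to 3 against m/m vehicle 1 to 5, and dapagliflozin 1 to 5 against db/db vehicle 4 and 5. Dapagliflozin 2 and 3 were averaged into 1 sample in the tests. Over genes with 20 to 99 reads they differed by less than the noise of sampling (a variance ratio of 0.724). Over all genes with at least 20 reads they differed by about that noise (1.02). Dapagliflozin 1 was close to 2 over the genes with 20 to 99 reads (a ratio of 0.885), but not over the wider set (1.73). To 3 it was close over neither (1.43 and 2.64). Dapagliflozin 1 was kept apart, and averaging all 3 is given as an alternative. A gene was called where the limma test, adjusted by Benjamini-Hochberg over all genes tested, gave a p under 0.05, and fold changes are on the scale of log2(FPKM + 1). Counts of called genes are given for FPKM as deposited and again after median-of-ratios scaling, which multiplies each library so that its typical gene lines up with the other libraries of its set. That scaling moved the median log2 fold change of all genes, db/db vehicle over m/m, to 0.00 from the 0.16 found as deposited.

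Subunit genes were among the most abundant nuclear-encoded transcripts of the kidney. In the 5 m/m libraries their median level was 165 FPKM, against 6.73 FPKM for all genes tested, and 74 of the 89 stood among the top 1000 genes. The F1 subunit genes led: Atp5b, the catalytic beta subunit, averaged 1711 FPKM and Atp5a1, the alpha subunit, 936 FPKM. Next came the complex IV genes Cox6a1 at 666, Cox4i1 at 665 and Ndufa4 at 643 FPKM, whose ranges over the m/m libraries overlapped. At the low end, 10 genes were under 10 FPKM in m/m kidney, among them the tissue-restricted isoforms Cox6b2, Cox6a2 and Cox4i2. The subunit genes also varied little between m/m libraries, with a median coefficient of variation of 3.48% over the 79 above 10 FPKM, against 5.50% over the 5151 genes of the table above that level. Above that floor the genes were not matched by level, and the part of abundance in this difference was not tested.

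Taken as a share of all FPKM in a library, the subunit genes held more of the transcriptome in db/db than in m/m kidneys under vehicle. Their share was 5.97 ± 0.210% in db/db vehicle 1 to 3 (SD, n = 3) and 4.74 ± 0.0776% in m/m (SD, n = 5), and the groups did not overlap, with 5.76% as the lowest db/db value and 4.85% as the highest m/m value. All 5 complexes shared in this. Complex I held 1.45 ± 0.0483% in db/db and 1.14 ± 0.0180% in m/m, complex III 0.689 ± 0.0288% in db/db and 0.537 ± 0.00847% in m/m, complex IV 1.55 ± 0.0425% in db/db and 1.20 ± 0.0289% in m/m, and ATP synthase 1.97 ± 0.0830% in db/db and 1.58 ± 0.0245% in m/m. Complex II was the closest, at 0.323 ± 0.0142% in db/db and 0.277 ± 0.00889% in m/m. The summed FPKM of a library was itself lower in db/db vehicle 1 to 3 (387118 to 396138) than in m/m (408054 to 413201). As a share of reads in genes, the subunit genes held 2.45 ± 0.0681% in db/db (SD, n = 3) and 2.10 ± 0.0302% in m/m (SD, n = 5), a smaller difference. A share depends on every other gene, so these values describe composition and were not tested.

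**Figure D1:**
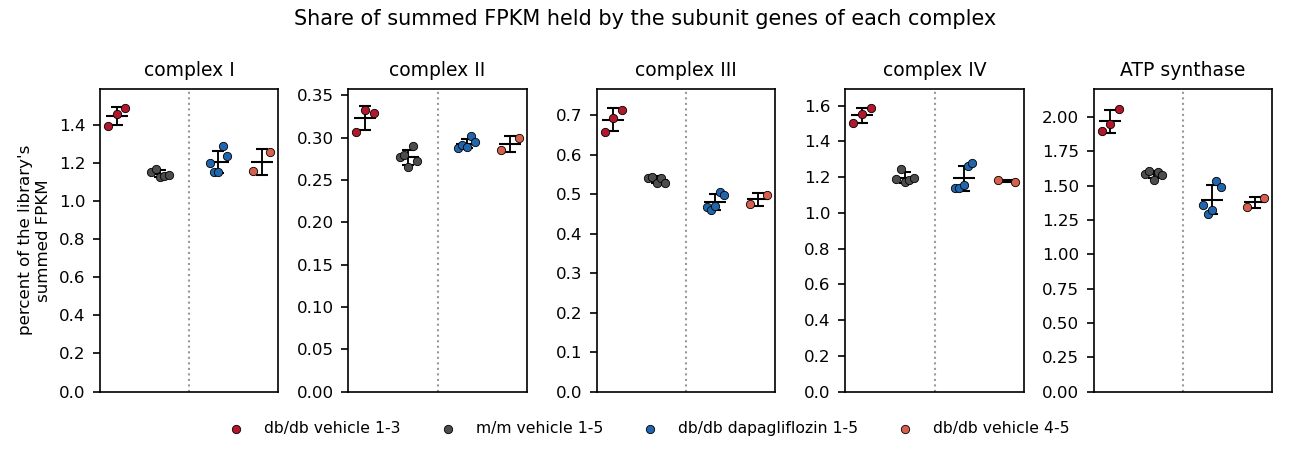
Share of each library's summed FPKM held by the subunit genes of each complex, 1 point per library, with the group mean and SD as bars; a dotted line divides the high-read set (left) from the low-read set (right). In each of the 5 panels the db/db vehicle 1 to 3 points lie above the m/m points, and the dapagliflozin points overlap those of db/db vehicle 4 and 5, whose total shares were 4.45% and 4.63%.

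Gene by gene, 51 of the 87 tested subunit genes rose in db/db vehicle 1 to 3 against m/m and 0 fell (limma, adjusted p under 0.05), with FPKM as deposited. That is 58.6% higher, where the background over all 12869 genes tested was 29.5% higher and 8.31% lower. The median log2 fold change was 0.27 over the subunit genes and 0.16 over all genes, and 81 of the 87 were positive. After median-of-ratios scaling 14 rose (16.1%) and 5 fell (5.75%), where the background was 12.7% higher and 18.1% lower, and the medians were 0.07 and 0.00. The scaled share of genes that rose was therefore close to that of all genes, while the share that fell was lower. In the libraries themselves, all 3 db/db values lay above all 5 m/m values for 67 subunit genes as deposited (background 37.5%) and for 29 after scaling (17.4%), and they lay below for 1 as deposited (10.2%) and for 7 after scaling (23.6%).

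The 14 genes that rose under both scalings came from 4 of the complexes: Ndufa5, Ndufa7, Ndufa11, Ndufb7, Ndufb8 and Ndufb9 of complex I, Uqcrh and Uqcrq of complex III, Cox5b, Cox6a1 and Cox6b2 of complex IV, and Atp5g1, Atp5mpl and Atp5o of ATP synthase. Another 37 were called as deposited only, 5 fell after scaling only, and 31 were called under neither. When each of the 15 libraries was left out in turn, 38 of the 51 calls held in every fit as deposited, and 9 of the 14 held in every fit after scaling: Atp5g1, Atp5o, Cox5b, Cox6a1, Cox6b2, Ndufa7, Ndufa11, Ndufb9 and Uqcrq. Without db/db vehicle 3 the counts of higher genes were 42 as deposited and 9 after scaling, and without db/db vehicle 1 only 1 gene, Ndufa4, was lower after scaling.

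**Figure D2:**
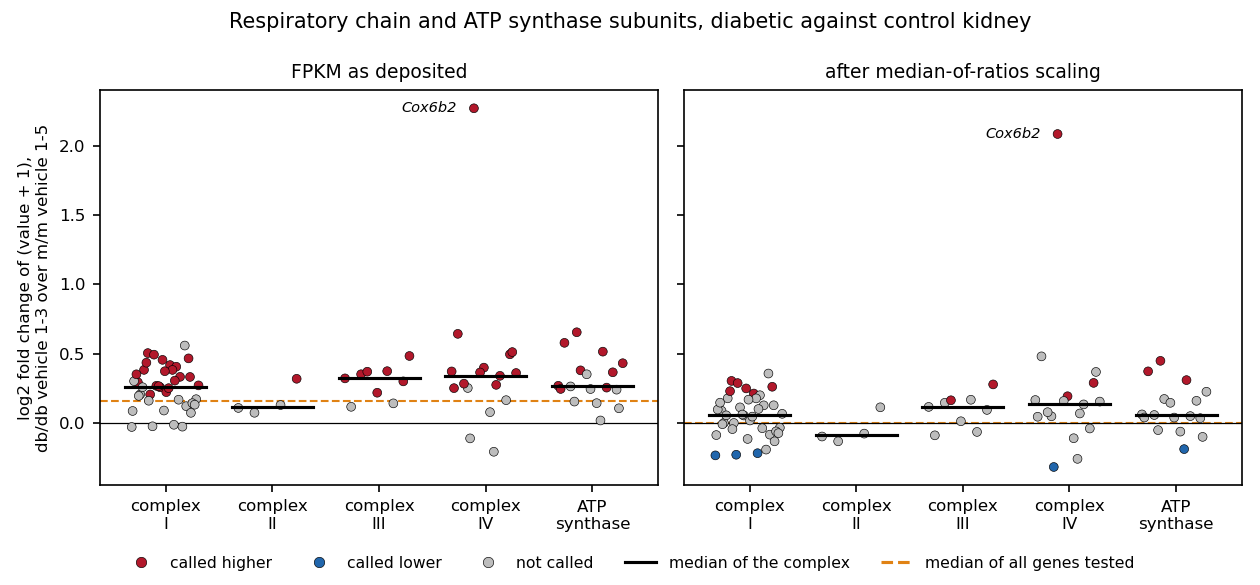
Log2 fold change of each tested subunit gene, db/db vehicle 1 to 3 over m/m vehicle 1 to 5, by complex, with FPKM as deposited (left) and after median-of-ratios scaling (right); black bars are medians of a complex and the dashed line is the median of all genes tested (red called higher, blue called lower, grey not called). On the left most points lie above the dashed line at 0.16; on the right they lie around it at 0.00, with Cox6b2 far above the rest in both.

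Complex I, the NADH dehydrogenase, had 22 of its 40 genes called higher as deposited (median 0.26), and 6 higher and 3 lower after scaling (median 0.06). The genes that rose under both scalings encode accessory subunits, which surround the catalytic core. Ndufa11, an accessory membrane-arm subunit, read 38.4, 37.6 and 39.2 FPKM in db/db vehicle 1 to 3, against 26.0, 27.0, 27.6, 26.6 and 26.7 FPKM in the m/m libraries. All 3 db/db libraries were above all 5 m/m libraries, and the log2 fold change was 0.50 as deposited (95% interval 0.32 to 0.69, adjusted p 0.000573) and 0.30 after scaling (adjusted p 0.00756). Ndufb9, another accessory subunit of the membrane arm, stood at 411, 418 and 443 FPKM in db/db and at 313, 319.5, 291, 312 and 310.2 FPKM in m/m. Again no library overlapped, and the log2 fold changes were 0.45 (adjusted p 2.77e-05) as deposited and 0.25 (adjusted p 0.0031) after scaling. The exons of Ndufb9 overlap a gene on the same strand over 19.5% of their bases, and those of Ndufa11 a gene on the opposite strand over 6.41%. Ndufa7 rose by 0.42 and Ndufa5 by 0.49 as deposited, and by 0.21 and 0.29 after scaling. Among the other genes called under both, Ndufb7 rose by 0.43 and 0.23, and Ndufb8 by 0.47 and 0.26.

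Among genes for core subunits of complex I, Ndufv2, Ndufs3 and Ndufs7 rose as deposited (0.37, 0.25 and 0.30) but were not called after scaling, and Ndufs1, Ndufs8 and Ndufv1 were not called higher under either. Ndufs1, the large iron-sulfur subunit, read 125, 138 and 136 FPKM in db/db vehicle 1 to 3, against 134, 133, 131, 141 and 137 FPKM in m/m. The groups overlapped as deposited (log2 fold change -0.02, 95% interval -0.16 to 0.11). After scaling the db/db values lay below all m/m values, and the gene was called lower at -0.23 (adjusted p 0.0208), a call lost when db/db vehicle 1 or 3 was left out. Ndufv1, which binds NADH and flavin, had a log2 fold change of 0.07 as deposited and -0.13 after scaling and was not called. Ndufs4, an accessory subunit whose loss in mice causes a Leigh-like disease, was not called either (0.26, 95% interval -0.10 to 0.61). Ndufab1, the mitochondrial acyl carrier protein, rose by 0.26 as deposited (adjusted p 0.0152) but not after scaling (0.05), and its call was lost without db/db vehicle 3. Of the accessory genes, Ndufa10 and Ndufa1 were called lower after scaling only (-0.22 and -0.23, adjusted p 0.0147 and 0.0292), and neither call held with every library left out in turn.

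Ndufs5, an accessory subunit, was uneven within groups and is named for that, after its values were seen. It read 40.1, 39.7 and 86.3 FPKM in db/db vehicle 1 to 3 and 30.7, 64.0, 29.0, 28.8 and 30.7 FPKM in m/m 1 to 5. A single library in each group, db/db vehicle 3 and m/m 2, was far above the others, and the groups overlapped (log2 fold change 0.56, 95% interval -0.17 to 1.28). The low-read libraries read 71.4, 51.6, 57.6, 65.3 and 54.1 FPKM under dapagliflozin and 30.6 and 81.1 FPKM in db/db vehicle 4 and 5.

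Complex II, the succinate dehydrogenase that also serves the citric acid cycle, had 1 of its 4 genes called higher as deposited and 0 called after scaling by limma, when 0 also had an unadjusted p under 0.05. Sdhd, a membrane anchor, read 267, 265 and 281 FPKM in db/db vehicle 1 to 3 and 216, 216, 214, 225 and 215 FPKM in m/m. The groups did not overlap, and the log2 fold change was 0.32 (adjusted p 0.0167); without db/db vehicle 3 the call was lost, and after scaling the value was 0.11 (adjusted p 0.329). The flavoprotein Sdha read 345, 413 and 392 FPKM in db/db, against 348, 371, 335, 372 and 349 FPKM in m/m. Its groups overlapped, with db/db vehicle 1 inside the m/m range (log2 fold change 0.11, adjusted p 0.212). The iron-sulfur subunit Sdhb had a log2 fold change of 0.13 (adjusted p 0.0532) and the other anchor, Sdhc, one of 0.07 (adjusted p 0.446). The median over complex II was 0.12 as deposited, under the 0.16 of all genes, and -0.09 after scaling.

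Complex III, the cytochrome bc1 complex, had 7 of 9 genes called higher as deposited (median 0.32), and 2 after scaling (median 0.12). Among the redox subunits, Cyc1 (cytochrome c1) rose by 0.32 as deposited (adjusted p 0.00489), while the Rieske iron-sulfur protein Uqcrfs1 was not called (0.14, adjusted p 0.0993). Of the core proteins, Uqcrc1 rose by 0.22 and Uqcrc2 was not called (0.12, adjusted p 0.0742). After scaling these 4 genes had values of 0.12, -0.07, 0.01 and -0.09, with 0 called. Among the small subunits, Uqcrb rose by 0.30 as deposited only. Uqcrq, a small membrane subunit near the ubiquinone site, read 141, 147 and 149 FPKM in db/db, against 99.8, 101, 106, 102 and 112 FPKM in m/m. The lowest db/db library was above the highest m/m library, and the log2 fold changes were 0.48 (adjusted p 0.000432) as deposited and 0.28 (adjusted p 0.00857) after scaling. Uqcr10 and Uqcr11 rose by 0.37 and 0.35 as deposited only. Uqcrh, the hinge protein that contacts cytochrome c, rose by 0.37 as deposited and 0.16 after scaling, the second call lost when any of 10 libraries was left out.

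Complex IV, the cytochrome c oxidase, had 12 of its 17 tested genes called higher as deposited (median 0.34), and 3 higher and 1 lower after scaling (median 0.13). It held the largest change of all 87 tested subunit genes. Cox6b2, the testis isoform of subunit 6b, read 19.0, 19.3 and 28.9 FPKM in db/db vehicle 1 to 3, against 3.16, 3.68, 4.20, 5.38 and 2.81 FPKM in m/m 1 to 5. Every db/db library was far above every m/m library, with db/db vehicle 3 the highest, and the reads behind these values were 183, 174 and 260 in db/db and 31, 35, 39, 50 and 28 in m/m. The log2 fold change was 2.27 (95% interval 1.93 to 2.61, adjusted p 3.83e-07) as deposited and 2.08 (adjusted p 6.85e-07) after scaling, and the ratio of the mean FPKM was 5.82. It stayed called in all 26 alternative fits, with log2 fold changes of 2.06 to 2.52 and adjusted p of 1.29e-07 to 4.07e-05. In the low-read set it read 37.9, 37.4, 31.9, 34.1 and 33.9 FPKM under dapagliflozin and 36.5 and 31.5 FPKM in db/db vehicle 4 and 5.

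The common isoform Cox6b1 stayed far more abundant throughout. It read 647, 628 and 659 FPKM in db/db vehicle 1 to 3 and 513, 498, 514, 524 and 497 FPKM in m/m, far above Cox6b2 in both groups. Cox6b1 was higher in each db/db library (log2 fold change 0.34, adjusted p 7.26e-05), and after scaling was 0.13 (adjusted p 0.0624). Other tissue isoforms gave smaller values. Cox6a2, the heart and skeletal muscle form of subunit 6a, read 3.44, 4.28 and 6.75 FPKM in db/db and 2.16, 2.71, 3.97, 2.57 and 2.03 FPKM in m/m; the groups overlapped, and its call at 0.64 (adjusted p 0.0115) was lost after scaling (0.48) and without db/db vehicle 3. Cox7a1, the muscle form of subunit 7a, was not called (0.08), nor was Cox4i2, a lung isoform linked to oxygen sensing (-0.21, from 4, 2 and 3 reads in db/db and 3, 7, 6, 2 and 10 in m/m). The untested pair were Cox7b2, a testis form with 1 read in db/db vehicle 1 and in m/m 1 and none in the other libraries, and Cox8b, a muscle form with at most 2 reads in any library.

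**Figure D3:**
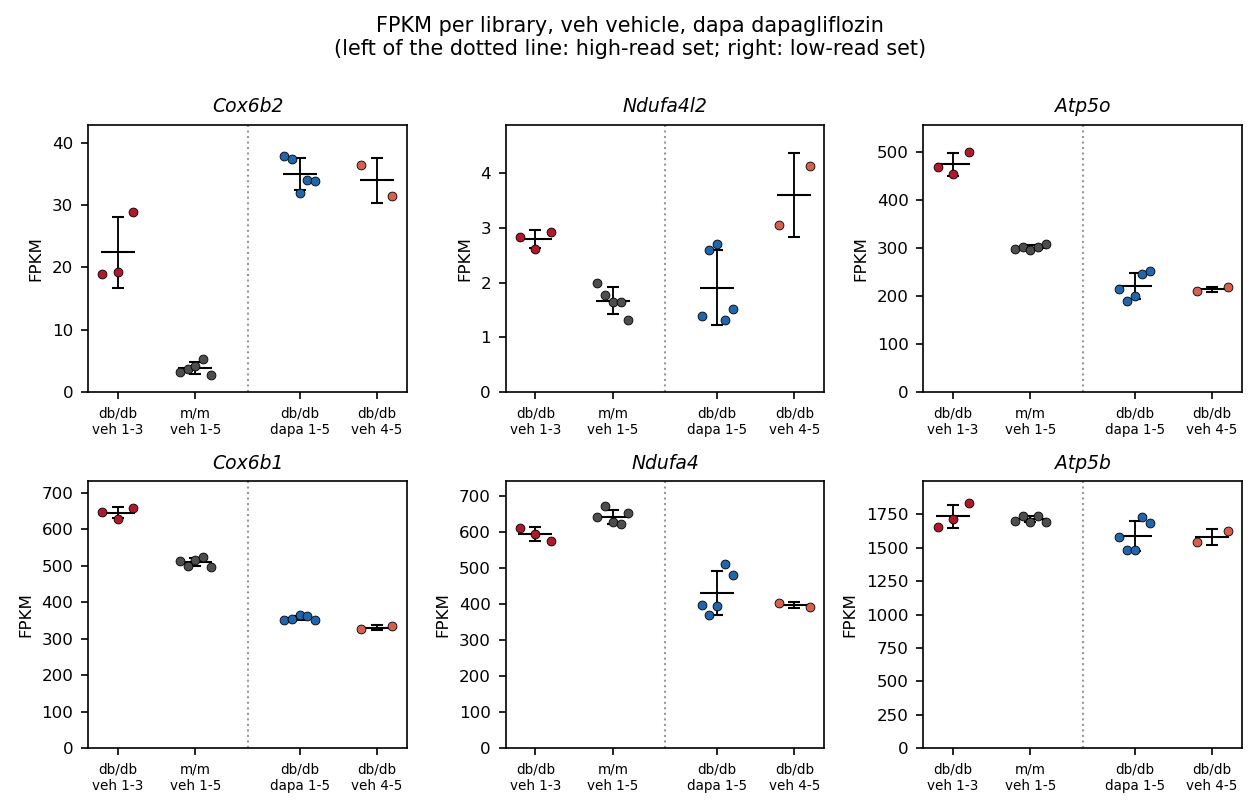
FPKM in every library of 3 pairs of subunit genes, with group means and SD as bars and a dotted line between the high-read set (left) and the low-read set (right). Cox6b2 stands at 19.0 to 28.9 FPKM in db/db vehicle 1 to 3 and at 2.81 to 5.38 FPKM in m/m, while Cox6b1 stays far above both; Ndufa4l2 is higher and Ndufa4 lower in db/db, and Atp5o lies apart between these groups while Atp5b overlaps.

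The sequences just before the start of transcription are shown for the subunit 6b pair, whose genes moved by different amounts, and for 2 other genes. Those 2, Ndufa11 and Cox6a1, were picked because they rose under both scalings and hold a match to NRF1, a transcription factor known for driving respiratory chain genes. The other subunit genes found with NRF1 letters, listed below, did not rise under both scalings. Of the 14 genes that did, only these 2 were found with the letters, and some of the 14 had no window to search. Each is the 250 bases before the start in RefSeq, build GRCm38.p6, written 5′ to 3′ on the strand of the gene, with the NRF1 letters GCGCATGC on either strand in capitals. Cox6b2 lies at chr7:4753095-4753344 and Cox6b1 at chr7:30626115-30626364, both on the minus strand. Ndufa11 lies at chr17:56717512-56717761 on the plus strand and Cox6a1 at chr5:115348959-115349208 on the minus strand.
Cox6b2: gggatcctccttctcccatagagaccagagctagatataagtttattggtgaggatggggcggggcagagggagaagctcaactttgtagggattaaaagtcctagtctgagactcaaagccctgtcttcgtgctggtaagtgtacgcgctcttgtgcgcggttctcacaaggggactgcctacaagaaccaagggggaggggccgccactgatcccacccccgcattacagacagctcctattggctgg
Cox6b1: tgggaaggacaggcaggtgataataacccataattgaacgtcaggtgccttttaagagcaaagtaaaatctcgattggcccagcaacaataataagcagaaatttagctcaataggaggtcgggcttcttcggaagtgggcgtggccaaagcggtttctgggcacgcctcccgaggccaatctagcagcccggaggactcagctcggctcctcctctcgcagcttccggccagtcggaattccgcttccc
Ndufa11: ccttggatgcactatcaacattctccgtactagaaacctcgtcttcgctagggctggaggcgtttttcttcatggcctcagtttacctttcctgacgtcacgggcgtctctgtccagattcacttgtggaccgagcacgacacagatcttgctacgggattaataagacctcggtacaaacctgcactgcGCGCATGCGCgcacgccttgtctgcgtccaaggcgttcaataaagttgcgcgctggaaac
Cox6a1: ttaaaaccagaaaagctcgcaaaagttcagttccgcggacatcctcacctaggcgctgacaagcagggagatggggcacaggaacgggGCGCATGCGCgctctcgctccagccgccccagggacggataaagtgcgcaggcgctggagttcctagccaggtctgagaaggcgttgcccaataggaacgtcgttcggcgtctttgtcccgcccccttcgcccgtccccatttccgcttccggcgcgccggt
In Ndufa11 and Cox6a1 the capitals are 2 overlapping matches, on opposite strands, that begin 60 and 162 bases before the start. The windows of Cox6b2 and Cox6b1 held no match to any of the 5 motifs searched, and are 54.8% and 54.0% G and C with 8 and 14 CpG. A match is a description of letters only, and a window without one says nothing about the factor.

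Among the ubiquitous subunits of complex IV, Cox5b had the smallest adjusted p. Cox5b, which binds zinc on the matrix side, read 517, 514 and 539.6 FPKM in db/db vehicle 1 to 3, against 375, 379.7, 363, 358 and 382 FPKM in m/m. The db/db libraries lay far above the others, and the log2 fold change was 0.49 (95% interval 0.37 to 0.62, adjusted p 3.23e-05) as deposited and 0.29 (adjusted p 0.000797) after scaling. Cox6a1, the common form of subunit 6a, read 864, 873 and 897 FPKM in db/db and 652, 699, 670.4, 664 and 645 FPKM in m/m, a rise of 0.40 as deposited and 0.19 after scaling. Cox4i1, Cox7a2 and Cox8a, the common forms of their subunits, rose by 0.37, 0.28 and 0.27 as deposited, and none was called after scaling (0.16, 0.08 and 0.07); the call of Cox7a2 was also lost without db/db vehicle 2, db/db vehicle 3 or m/m 5. Cox6c, Cox7b and Cox7c, further small subunits around the core, rose by 0.36, 0.36 and 0.25 as deposited only. Cox5a, the neighbour of Cox5b in the complex, missed the threshold (0.25, adjusted p 0.0516), as did Cox7a2l, a factor of supercomplex assembly (0.16, adjusted p 0.107).

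Ndufa4, first named as a complex I subunit and later placed in complex IV, went the other way. It read 613, 596 and 576 FPKM in db/db vehicle 1 to 3, against 641, 671, 628, 621 and 652 FPKM in m/m. It was the only tested subunit gene with all db/db libraries below all m/m libraries as deposited, though not called (-0.11, adjusted p 0.313), and after scaling it fell by 0.32 (adjusted p 0.00646), a call that held with each library left out. Its paralogue Ndufa4l2, known to be induced through the hypoxia factor HIF1, read 2.84, 2.62 and 2.93 FPKM in db/db and 1.99, 1.77, 1.64, 1.64 and 1.32 FPKM in m/m. Here all db/db values were above all m/m values, and the log2 fold change was 0.51 (adjusted p 0.0132), lost after scaling (0.37, adjusted p 0.0753) and without db/db vehicle 3. Ndufa4l2 remained below 3 FPKM in these 8 libraries, far under Ndufa4.

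ATP synthase had 9 of 17 genes called higher as deposited (median 0.26), and 3 higher and 1 lower after scaling (median 0.06). The most changed was Atp5o, the OSCP subunit at the joint between the F1 head and the stalk. It read 468, 453 and 499 FPKM in db/db vehicle 1 to 3 and 298, 301, 295, 301 and 308 FPKM in m/m. The m/m libraries were within a few FPKM of each other and all db/db libraries were well above them, a log2 fold change of 0.65 (95% interval 0.49 to 0.81, adjusted p 2.62e-05) as deposited and 0.45 (adjusted p 0.000195) after scaling. Of its exon bases up to 15.8% overlap a gene on the opposite strand in the GRCm38 annotation, and 12.7% overlap one on the same strand. Part of its reads may therefore belong elsewhere. Atp5g1, a gene for the c subunit of the proton ring, read 256, 234 and 265 FPKM in db/db and 168, 176, 167, 169 and 162 FPKM in m/m. Its groups were apart as well, with log2 fold changes of 0.58 (adjusted p 0.000121) and 0.37 (adjusted p 0.00133). The other genes for the same c subunit protein, Atp5g2 and Atp5g3, rose by 0.25 and 0.38 as deposited and were not called after scaling (0.05 and 0.17). Atp5mpl, a small membrane subunit, rose by 0.51 as deposited and 0.31 after scaling. In the peripheral stalk, which OSCP caps, Atp5h (subunit d) rose by 0.43 as deposited only (adjusted p after scaling 0.0525), and Atp5pb (subunit b) and Atp5j (coupling factor 6) were not called (0.11 and 0.14).

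In the catalytic head and its central stalk, 1 of 5 genes was called as deposited. Atp5b, the most abundant subunit gene, read 1658, 1711 and 1831 FPKM in db/db vehicle 1 to 3, against 1703, 1736, 1694, 1734 and 1690.1 FPKM in m/m. The groups overlapped, with a log2 fold change of 0.02 (95% interval -0.11 to 0.15, adjusted p 0.847). After scaling it turned to -0.19 and was called lower (adjusted p 0.027), a call lost without db/db vehicle 1 or m/m 2, 3 or 4. Atp5a1, its partner in the head, rose by 0.27 as deposited (adjusted p 0.00355) and had 0.06 after scaling. The stalk genes Atp5c1 (gamma), Atp5d (delta) and Atp5e (epsilon) had log2 fold changes of 0.15, 0.24 and 0.24 as deposited, with adjusted p of 0.0554, 0.0591 and 0.121. Atpif1, the inhibitor that blocks ATP hydrolysis and is no subunit in the count above, averaged 112 ± 13.8 FPKM in db/db (SD, n = 3) and 97.6 ± 4.58 FPKM in m/m (SD, n = 5) and was not called (log2 fold change 0.20, adjusted p 0.097).

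Genes that build or serve the chain are given as counts from lists. Beside them, over all genes tested, 29.5% rose and 8.31% fell in db/db as deposited, and 12.7% rose and 18.1% fell after scaling. Of 16 complex I assembly factors tested, 3 rose and 3 fell (median -0.10), and after scaling 0 rose and 8 fell; Acad9 averaged 27.9 ± 1.89 FPKM in db/db and 42.2 ± 4.45 in m/m (log2 fold change -0.58). Of 36 factors for the other complexes 6 rose and 1 fell, 1 and 5 after scaling; the complex III factor Uqcc2 rose (34.5 ± 1.12 FPKM in db/db and 21.6 ± 1.48 in m/m, 0.66) and Cox15, which makes heme A for complex IV, fell by 0.46. Among 28 regulators of mitochondrial biogenesis 4 rose and 1 fell, 0 and 5 after scaling. Ppargc1a, the coactivator PGC-1α, averaged 7.34 ± 0.903 FPKM in db/db and 5.41 ± 0.265 in m/m (0.38, adjusted p 0.00868; after scaling 0.20, not called). The regulator that fell as deposited was Ppard, at 6.59 ± 0.938 FPKM in db/db and 12.2 ± 3.26 in m/m (-0.77, adjusted p 0.00873 by limma). Its call held after scaling (-0.95, adjusted p 0.00232).

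Of 24 genes for mobile electron carriers and other electron entry 6 rose and 3 fell, of 14 citric acid cycle genes 4 rose and 0 fell, and of 30 genes for import and inner membrane carriers 6 rose and 2 fell. After scaling these were 1 and 6, 0 and 6, and 1 and 6. The heart form of the ADP/ATP carrier, Slc25a4, rose under both scalings (356 ± 16.6 FPKM in db/db and 217 ± 10.2 in m/m, 0.71 and 0.51). Mitochondrial ribosomal proteins had 12 of 78 higher and 2 lower, and 1 and 13 after scaling. Cytosolic ribosomal proteins, also short and abundant transcripts, had 65 of 88 higher and 1 lower (median 0.36), and 29 and 2 after scaling (median 0.15), both medians above those of the subunit genes.

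Kidney mixes cell types, so fewer cells of a type and less RNA per cell cannot be told apart. Markers of the kidney segments were detected in all 15 libraries, and several differed between the same groups as the subunit genes. The background over all genes tested was 29.5% higher and 8.31% lower as deposited, and 12.7% higher and 18.1% lower after scaling. Of 12 proximal tubule markers 1 rose and 5 fell in db/db as deposited, and 1 rose and 7 fell after scaling, with sums of 5178 to 6540 FPKM in db/db vehicle 1 to 3 and 6332 to 7381 in m/m. Of 8 markers of the thick ascending limb, 4 rose and 1 fell as deposited, but 1 rose and 3 fell after scaling, with sums of 1399 to 1791 in db/db and 1515 to 1782 in m/m. All 6 distal convoluted tubule markers rose (sums 572 to 763 in db/db and 284 to 357 in m/m), as did 5 of 7 of principal cells (422 to 481 in db/db and 251 to 308 in m/m), 6 of 7 of intercalated cells (138 to 197 in db/db and 81.4 to 93.2 in m/m) and 6 of 7 of podocytes (147 to 168 in db/db and 85.7 to 109.6 in m/m). For endothelium 3 of 7 rose (91.1 to 119 in db/db and 94.1 to 102 in m/m), for fibroblasts and mural cells 3 of 6 (44.9 to 94.5 in db/db and 27.0 to 40.9 in m/m), and for macrophages and leukocytes (122 to 337 in db/db and 72.4 to 121 in m/m) and red blood cells (63.0 to 301 in db/db and 36.2 to 205 in m/m) 0 were called, with no marker at 0 in these 2 groups. After scaling 6 distal convoluted tubule, 5 principal, 6 intercalated, 4 podocyte, 0 endothelial and 2 fibroblast and mural markers rose, 1 principal and 2 endothelial markers fell, and 0 of the macrophage and leukocyte or red blood cell markers were called. The part of these markers in the subunit results was not tested.

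Dapagliflozin left 0 of the 87 subunit genes called in either direction against db/db vehicle 4 and 5, as deposited and after scaling (limma, adjusted p under 0.05). Few genes of any kind were called, 0.28% of all tested as deposited and 0.264% after scaling. At an unadjusted p under 0.05 there were 8 subunit genes, 9.20%, against 12.7% of all genes. The median log2 fold change was 0.03 as deposited and 0.04 after scaling, and 79 of the 87 values were within 0.2 of 0, among them Ndufb4c, which had 0 reads in these 7 libraries. The 95% intervals had a median half-width of 0.19, so changes of that size in most subunit genes could not be told from none. Shares of FPKM averaged 1.21% for complex I, 0.293% for complex II, 0.480% for complex III, 1.19% for complex IV and 1.40% for ATP synthase under dapagliflozin, against 1.21%, 0.292%, 0.487%, 1.18% and 1.38% under vehicle.

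The lowest p belonged to Ndufa4l2. It read 1.39, 2.59, 2.71, 1.31 and 1.52 FPKM in dapagliflozin 1 to 5, against 3.05 and 4.14 FPKM in db/db vehicle 4 and 5. All treated libraries were below both vehicle libraries, on 3, 5, 5, 3 and 4 reads under dapagliflozin and 7 and 9 under vehicle. The log2 fold change was -0.77 (95% interval -1.14 to -0.41, p 0.000483, adjusted p 0.0833), and adjusted p ran between 0.0433 and 0.842 over the alternatives. It was called with all libraries pooled by group and with dapagliflozin 1, 2 and 3 averaged. Cox7a1 had the largest increase: 10.5, 14.3, 17.6, 23.0 and 19.96 FPKM under dapagliflozin and 10.9 and 6.91 FPKM under vehicle, from 9, 11, 13, 21 and 21 reads under dapagliflozin and 10 and 6 under vehicle. Dapagliflozin 1 lay between the vehicle libraries and the other 4 above them (log2 fold change 0.86, 95% interval 0.30 to 1.43, adjusted p 0.167), and without dapagliflozin 1 the gene was called.

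Others were nearer to their spread. Ndufs6, an accessory subunit of complex I that binds zinc, read 29.6, 26.0, 32.1, 38.8 and 33.7 FPKM under dapagliflozin and 43.7 and 39.8 FPKM under vehicle. Its groups did not overlap (log2 fold change -0.35, adjusted p 0.154), and it is named after its values were seen, as is Ndufb1. Ndufb1, another accessory subunit, read 9.46, 5.28, 5.52, 5.94 and 11.6 FPKM under dapagliflozin and 10.4 and 12.5 FPKM under vehicle, with overlap (-0.50, adjusted p 0.33). In all, 3 subunit genes lay above vehicle in every treated library (Cox6a2, Cox6b1 and Ndufb5; background 5.73%) and 3 lay below (Ndufa1, Ndufa4l2 and Ndufs6; 7.09%). After scaling these were 3 above (background 6.45%), with Cox7a1 in place of Cox6b1, and 4 below (6.76%), with Ndufv3 added. Of the 4 genes with the largest called rises in db/db as deposited, none was called under the drug. Cox6b2 had a log2 fold change of 0.05 (95% interval -0.36 to 0.46), Atp5o 0.08 (95% interval -0.12 to 0.27) and Atp5g1 0.15 (95% interval -0.05 to 0.36). Cox6a2 had 0.47 (95% interval 0.02 to 0.91, p 0.0422, adjusted p 0.371). Cox5b had -0.05 (95% interval -0.20 to 0.10) and Ndufa11 0.09 (95% interval -0.13 to 0.31). The flavoprotein Sdha, with 529, 498, 508, 546 and 506 FPKM under dapagliflozin and 489.6 and 533 FPKM under vehicle, differed by 0.03 (95% interval -0.14 to 0.19). In the lists of other genes, cell type markers included, the only calls were Mrps33, a mitochondrial ribosomal protein that fell by 0.74 (6.68 ± 1.16 FPKM under dapagliflozin and 11.98 ± 0.0954 under vehicle, adjusted p 0.0328), and Rpl6l, a copy of a cytosolic ribosomal protein gene (2.03 ± 0.439 FPKM under dapagliflozin and 0.546 ± 0.0201 under vehicle, log2 fold change 0.93, adjusted p 0.0166).

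**Figure D4:**
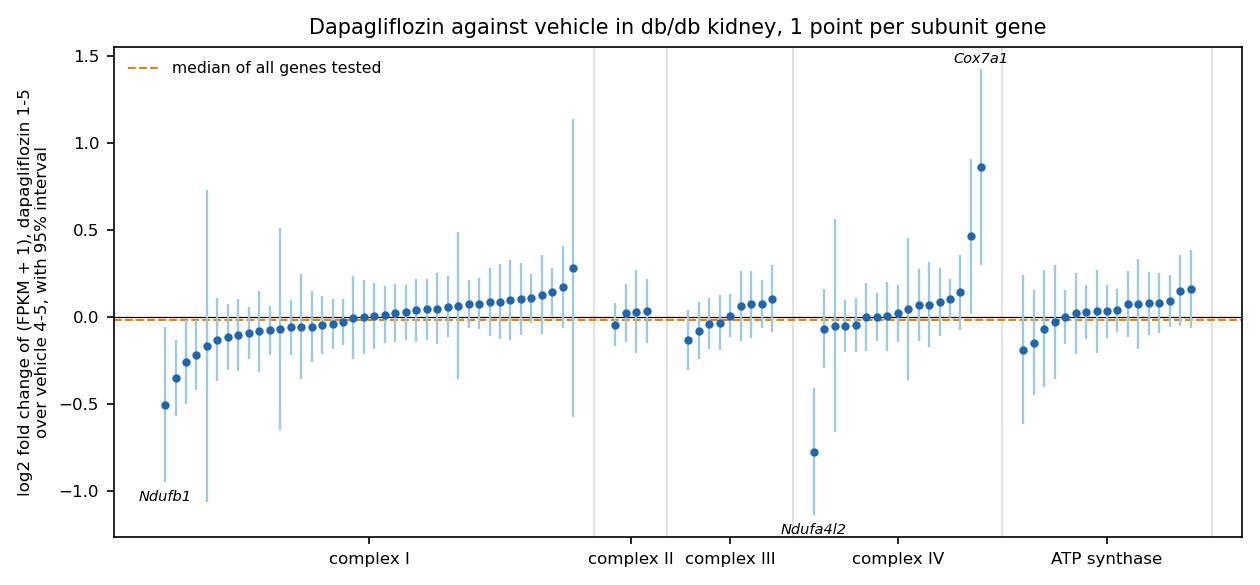
Log2 fold change of each tested subunit gene under dapagliflozin 1 to 5 over db/db vehicle 4 and 5, with 95% intervals, ordered within each complex; the dashed line is the median of all genes tested, at -0.02. Most points lie within 0.2 of 0, and Ndufa4l2 (-0.77) and Cox7a1 (0.86) stand farthest out, both uncalled.

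The library sets differed widely in the subunit genes even among libraries of the same db/db vehicle group. Between db/db vehicle 4 and 5 and db/db vehicle 1 to 3, 14 subunit genes were called higher and 57 lower (background 18.8% higher and 42.3% lower), with a median of -0.66 against -0.25 for all genes, and after scaling 16 and 54 (background 21.4% and 36.1%). Of the 87, 36 were more than 2-fold apart. These libraries share 1 label, and their labels give nothing that separates the sets. The contrast uses the vehicle libraries of both comparisons above. Ndufb1 read 10.4 and 12.5 FPKM in db/db vehicle 4 and 5, against 132, 136 and 138 FPKM in db/db vehicle 1 to 3. Cox7a2 read 31.3 and 24.6 FPKM in db/db vehicle 4 and 5, against 219, 233 and 225 FPKM in db/db vehicle 1 to 3. Both were many times lower in the low-read libraries, while Ndufb3, another accessory gene of complex I, was higher there, at 209 and 247 FPKM in db/db vehicle 4 and 5, against 90.6, 96.3 and 91.9 FPKM in db/db vehicle 1 to 3.

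Log2 differences between the sets ran down to -3.46 for Ndufb1, -3.37 for Ndufb4, -2.98 for Cox7a2 and -2.52 for Atp5l, and up to 1.28 for Ndufb3 and 1.02 for Ndufb7. Ndufb4c, related to Ndufb4 by name, had 0 reads in all 7 low-read libraries and 3.76, 3.18 and 3.20 FPKM in db/db vehicle 1 to 3. Levels are therefore compared within a set only, and pooling all libraries by group gave 18 subunit genes higher in db/db and turned 11 values of named genes below 0 where 1 of the fits had a call, and 9 more of named genes called in neither.

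**Figure D5:**
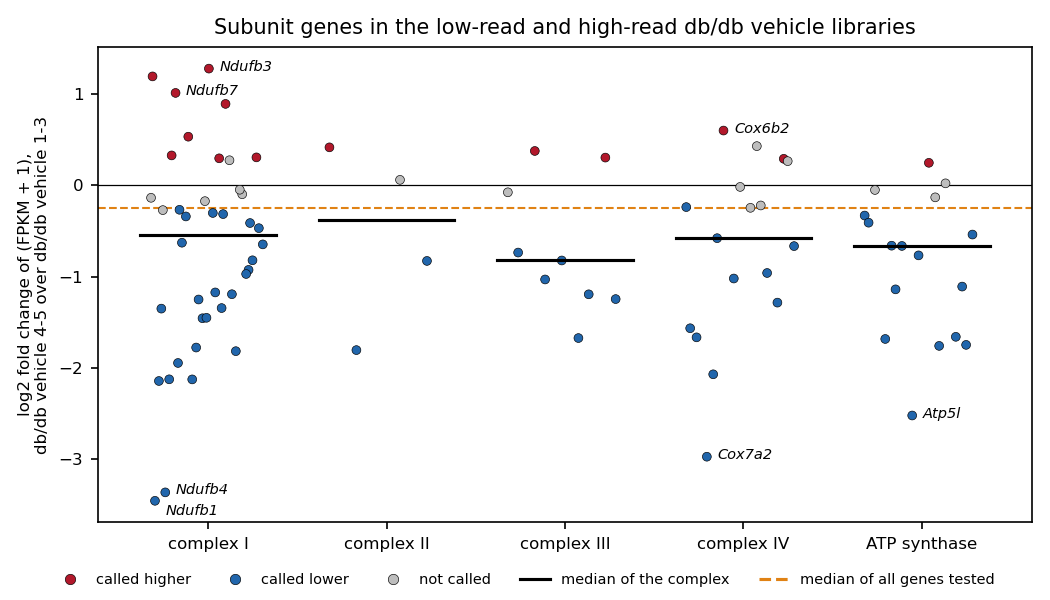
Log2 fold change of each tested subunit gene, db/db vehicle 4 and 5 (low-read) over db/db vehicle 1 to 3 (high-read), by complex, with medians of each complex as black bars and the median of all genes tested as a dashed line at -0.25. Points run from -3.46 to 1.28 within the same labelled group (red called higher, blue called lower, grey not called); Ndufb4c, with 0 reads in the low-read libraries, is drawn at its fitted value, which is no bound.

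The subunit genes share short transcripts. The length implied by FPKM and reads had a median of 754 bases, against 3377 over all genes tested. Across the 87 genes, which share libraries and are not independent, Spearman's rho was -0.20 between this length and the db/db difference, 0.05 between length and the difference of the library sets, and -0.04 between m/m level and the db/db difference. Exons of 29 subunit genes overlap those of another gene on either strand in the GRCm38 annotation. How strand was treated in counting is not stated in any source used, so their reads may be shared. Of 83 genes with a transcript to search, 20 have a pseudogene copy at 95% identity or more over at least 100 bases; their median library set difference was -0.80, against -0.47 over the 61 tested genes without one. Ndufb4, Ndufb4b and Ndufb4c, and likewise Ndufs6 and Ndufs6b, are related by name, and the counting could have split reads between them. How alike their sequences are was not measured.

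RefSeq promoter windows (build GRCm38.p6) were matched for 71 of the 89 genes, 76 windows in all, each from 250 bases before to 50 bases after the start. The NRF1 letters GCGCATGC, counted on both strands, were in 13.2% of these windows, against 4.76% of the windows of tested genes. The YY1 letters AAGATGGC were in 13.2% against 4.24%, and the letters AAGGTCA of the estrogen-related receptors in 10.5% against 3.32%. The GABP letters CCGGAAGT (6.58% against 7.51%) and the hypoxia response core ACGTG (25.0% against 24.7%) were about as common as in other tested genes. Genes with the NRF1 letters were Atp5g2, Atp5k, Atp5l, Cox6a1, Ndufa6, Ndufa8, Ndufa11, Sdhb, Uqcr11 and Uqcrc1. Of these 10, Cox6a1 and Ndufa11 rose under both scalings. Over all 87 tested subunit genes, 14 (16.1%) did. A link between the letters and the rise was not tested.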

How the data were processed

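Kidney RNA was extracted with a mirVana kit and sequenced as TruSeq Stranded mRNA libraries, per the labels' protocols. The FPKM values per gene are those the authors deposited in 1 table of 17832 genes and 15 libraries. The tools named are HISAT2, Cufflinks, HTSeq and Trimmomatic on GRCm39, per the submitters' processing notes, with no version, setting or strand option given in the sources used here.

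The subunit genes, the lists of other genes and the tests were chosen with earlier results of these data known. Reads per gene were recovered from the steps of the FPKM values, whole for 100% of them at a relative tolerance of 1e-08. These reads served for depth, sampling noise, the implied transcript lengths and the numbers of reads given. Precision therefore differs between the sets: 3 reads, the limit that a count of 0 allows, is a larger share of a low-read library, and such limits cover counting error only.

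The test was limma 3.58.1 (R 4.3.3) with an intensity trend on log2(FPKM + 1), a pseudocount of 1, for the 12869 genes whose mean reached 0.5 FPKM. It was a single fit of 14 samples in 4 cells (m/m, db/db vehicle 1 to 3, db/db vehicle 4 and 5, dapagliflozin with 2 and 3 averaged), 2-sided, with Benjamini-Hochberg adjustment over all genes tested and calls at 0.05. Fold changes on this scale understate the change of low genes. Scaled values were fitted again after median-of-ratios scaling within each library set. The procedure was also run on simulated data. These had the same spread beyond sampling for every gene and no general shift between groups, so they cannot speak to the choice of scaling. The alternatives were other scalings, pseudocounts and filters, a fit of each set alone, pooling by group, 15 separate libraries, a replicate block, dapagliflozin 1, 2 and 3 averaged (added after seeing the data), and leaving out each library.

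Genes named are a list fixed by name, the members called in each complex and comparison with the largest changes or smallest adjusted p (up to 2 each), all members below the filter, and up to 3 called genes of each other list; genes outside this rule, such as Ndufs5, Ndufs6 and Ndufb1, are named after their values were seen, as are those given to complete a group of subunits, in a count or in the contrast of the library sets. Not every gene that met this rule is reported here. Python 3.11.15, pandas 2.3.3, numpy 2.4.6 and matplotlib 3.10.9 were used elsewhere. Promoter windows came from RefSeq on GRCm38.p6 and exon overlaps from GENCODE on GRCm38, matched by symbol; pseudogene copies were searched with BLAST 2.17.0. No coordinates were converted between builds.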

Additional observations from a re-analysis of the deposited data

Results flagged for a closer look

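In 4 of the 96 sets of 4 to 10 samples examined (4.17%), 1 sample stood apart from the rest by Dixon's criterion, where chance gives about 5%. Ndufs5 was added to the genes examined after its uneven values were seen. Its flag was therefore known beforehand, and the 4.17% cannot be weighed against chance. Ndufa4l2 averaged 2.65 FPKM in dapagliflozin 2 and 3, counted as 1 sample, against 1.31 to 1.52 FPKM in the other dapagliflozin samples (n = 4), on 3 to 5 reads a library. Ndufs5 read 64.0 FPKM in m/m vehicle 2, against 28.8 to 30.7 FPKM in the other m/m libraries (n = 5). Sdhd read 225 FPKM in m/m vehicle 4, against 214 to 216 FPKM in the others. The summed FPKM of complex IV genes was 5128 in m/m vehicle 2, against 4823 to 4911 in the others.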

How the results depend on the processing

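For db/db vehicle 1 to 3 against m/m, the 51 higher and 0 lower subunit genes became 14 and 5 after median-of-ratios scaling within sets, 13 and 5 with that scaling over all libraries, and 18 higher with all libraries pooled by group; with libraries scaled to the same sum 71 were higher. Other settings gave 50 to 68. With a library left out the range was 42 (without db/db vehicle 3) to 55 (without dapagliflozin 5), and after scaling 9 (without db/db vehicle 3) to 18 (without dapagliflozin 4) higher and 1 (without db/db vehicle 1) to 6 (without db/db vehicle 2) lower. For dapagliflozin, 4 were lower when pooled, 1 with dapagliflozin 1, 2 and 3 averaged, and 0 to 1 higher with a library left out, 1 without dapagliflozin 1, under both scalings. The causes were not tested.

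Counting sign changes where either fit had a call, the db/db over m/m log2 fold change pooled by group was reversed for Ndufab1 (-0.24), Sdhd (-0.0134), Uqcrc1 (-0.11), Cox6a2 (-0.0248), Cox6b1 (-0.045), Cox7a2 (-0.91), Ndufa11 (-0.28), Ndufb9 (-0.13), Ndufa7 (-0.0529), Uqcrq (-0.0165) and Uqcr10 (-0.30). Scaled over all libraries, Uqcrc1 (-0.0022) and Atp5b (-0.20) reversed, and within sets Atp5b (-0.19). A further 9 named genes changed sign when pooled and 10 under each scaling without a call in either fit. Of 1036 values of 40 named genes in this comparison, 918 kept their direction and side of the threshold; of 777 values of 30 genes under dapagliflozin, 714 did.

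Whether replicate numbers pair samples is not settled. Within a set, correlations of same-numbered deviations were 0.38, 0.05 and -0.01 for numbers 1 to 3 and -0.05 and -0.72 for 4 and 5. These values cannot decide it, as db/db vehicle 4 and 5 are the only vehicle libraries of their set. A replicate block over 15 separate libraries gave 52 higher as deposited, and 10 higher and 0 lower after scaling. Low-read libraries limit dapagliflozin results, above all for genes of a few reads.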
